A study of Mus musculus with 11 samples.

Results

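The genes described here encode secreted Wnt ligands, their Frizzled receptors, the R-spondins that strengthen Wnt signalling, and the secreted antagonists of the Sfrp and Dkk families. They were taken by symbol from the protein-coding genes of the deposited count table: every Wnt, Fzd, Sfrp, Dkk or Rspo gene whose name ends in a number, with or without the letter a or b, leaving out Wnt4, Rspo1 and Sfrp4. That gave 38 of the 54232 genes in the table, made up of 18 Wnt, 10 Fzd, 3 Sfrp, 4 Dkk and 3 Rspo genes. The rule reads names only, but the families were picked with earlier results of these data known.

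RNA of ovaries of wild-type mice (labelled WT, with no other allele and no treatment given) was sequenced at 3 ages labelled 2, 18 and 24 months. The library names carry 8 weeks for the first age and 22 months for the last. The young and the 18 month group had 4 libraries each and the oldest had 3, with 5231724 to 33407509 counts each. Neither the strain nor whether the libraries come from separate animals is stated in the sources used here. The spread behind each p-value is that between these samples, which may be technical.

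Replicates 3 and 4 of 18 months were as alike as repeated sampling of 1 library, with a chi-square of 1.10 per gene where every other same-age pair reached at least 35.04. Their sum was used as 1 sample, leaving 4, 3 and 3 samples. Marker genes of the ovary were present at every age, the granulosa cell list with sums of 2891 to 3938 CPM in young samples, 1569 to 2595 CPM in 18 month samples and 1412 to 3208 CPM in the oldest. The oviduct and Mullerian epithelium list summed to 37.3 to 64.9 CPM at 2 months and to 64.9, 209 and 1174 CPM in 24 month replicates 1, 2 and 3, so that 24 month replicate 3 stood apart. No marker of the 15 cell type lists was at 0 in every sample of an age.

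Wnt proteins are lipid-modified ligands that bind a Frizzled receptor, together with the coreceptors Lrp5 and Lrp6 in the beta-catenin branch, or with receptors such as Ror2 in branches that steer cell shape and polarity. R-spondins bind Lgr receptors and remove the ligases Znrf3 and Rnf43, which otherwise clear Frizzled from the cell surface. Sfrp proteins bind Wnts outside the cell, and Dkk1 and Dkk2 bind the Lrp coreceptors. In the mouse ovary this pathway acts in sex determination, in the growth of follicles and in the formation of the corpus luteum.

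Expression is given as CPM, the count of a gene relative to the TMM-scaled library total. Values per sample follow the replicate numbers, with the sum of replicates 3 and 4 as the last 18 month value. A gene was called when edgeR's quasi-likelihood test gave a Benjamini-Hochberg adjusted p under 0.05 over all 20331 genes tested. Of the 38 genes, 28 passed the filter on low counts and were tested. Sfrp5 and Wnt16, with at most 10 counts in any 2 month sample, passed it through the older samples where they are high. Their calls at 24 months are therefore not independent of the filter. At 18 months 5 of these 28 were called against 2 months, 4 higher and 1 lower, where 11.6% of all genes were called, 6.04% higher and 5.51% lower. At 24 months 14 of 28 were called against 2 months, 12 higher and 2 lower, where 35.0% of all genes were called, 19.2% higher and 15.8% lower. The median log2 fold change of the 28 was 0.75 at 18 months and 0.89 at 24 months, beside 0.01 and 0.03 over all genes tested. With library totals in place of TMM factors, the share of all called genes that were higher went from 52.3% to 66.7% at 18 months and from 54.9% to 73.0% at 24 months, the median of all genes at 24 months went to 0.22, and the counts of called members were again 5 and 14. Both comparisons use the same 2 month samples. Some calls depended on other settings: Fzd1 at 18 months was lost with library totals, with no filter and with limma-voom, and Wnt2b at 18 months with no filter. At 24 months Fzd5 was lost with library totals, Fzd7 with no filter, Fzd10 and Wnt11 with no filter and with limma-voom, Fzd10 with 18 month replicate 4 in place of the sum, and Wnt5a with only the ages compared.

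**Figure D1:**
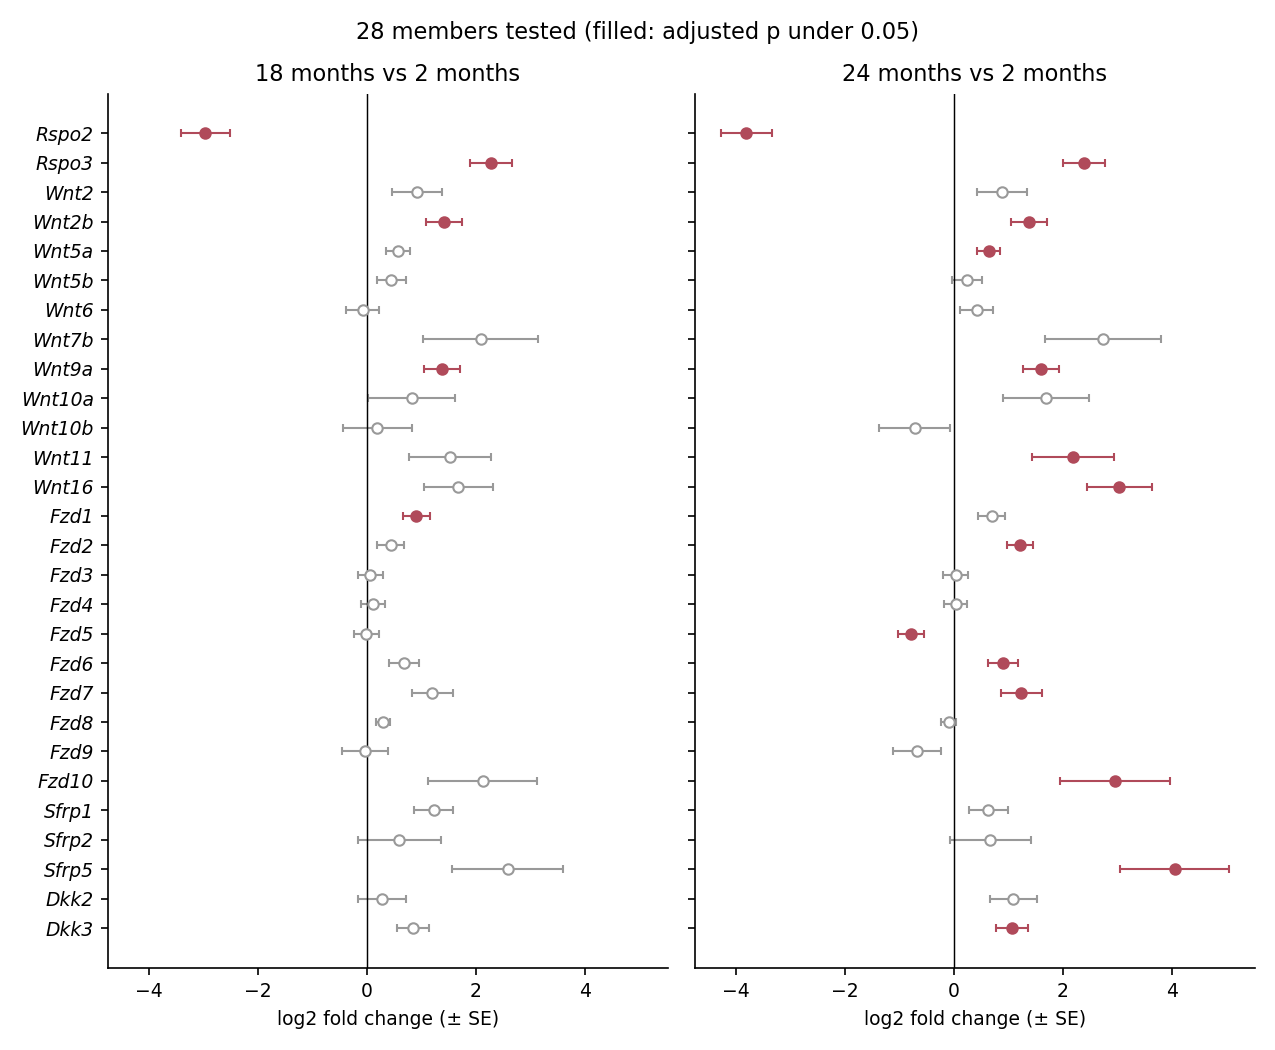
Log2 fold change with its SE (horizontal axis) of the 28 tested genes, at 18 months and at 24 months against 2 months, grouped by family. Filled points passed an edgeR adjusted p of 0.05. Rspo2 lies furthest to the left in both panels, at -2.97 and -3.81. Of the 28 genes, 24 and 23 lie to the right of 0, and of all 20331 genes tested 10309 and 10571 had a positive fold change.

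The R-spondin genes changed in opposite directions. Rspo2, which in the mouse ovary is known as a product of the oocyte, fell, while Rspo3, an R-spondin known from blood vessels and mesenchyme, rose. Rspo2 (ENSMUSG00000051920, chromosome 15, 43020794 to 43170826 in mm10, minus strand) was at 10.7, 13.4, 4.995 and 9.59 CPM at 2 months. It was at 1.84, 1.01 and 0.795 CPM at 18 months and at 1.01, 0.484 and 0.582 CPM at 24 months. Each older sample lay below each 2 month sample, and the older ages overlapped each other.

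Rspo2 fell by 2.97 on the log2 scale at 18 months (SE 0.45, edgeR adjusted p = 0.0117), or 7.85-fold, and fell by 3.81 at 24 months (SE 0.47, adjusted p = 0.00195), or 14.0-fold. In bulk ovary RNA, fewer cells of a type and less RNA per cell cannot be told apart. All 10 genes of the oocyte marker list were lower at both ages as well, their summed level being 270 to 637 CPM in young samples, 34.8 to 74.5 CPM in 18 month samples and 6.69 to 47.1 CPM in the oldest. Within the 2 month group, replicate 3 was the lowest both in Rspo2 and in this sum, and replicate 2 was the highest in both. This was not particular to the oocyte list. The same samples were lowest and highest in the smooth muscle and pericyte and the oviduct and Mullerian epithelium sums. The uterus and Mullerian stroma and the nerve and glia sums shared them as well. The part of the oocyte list in the fall of Rspo2 was not tested.

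Rspo3 (ENSMUSG00000019880, chromosome 10, 29452416 to 29535867, minus strand) was at 0.758, 1.06, 0.406 and 1.31 CPM at 2 months. It was at 2.94, 4.98 and 5.04 CPM at 18 months and at 3.62, 5.86 and 4.51 CPM at 24 months, so that every older sample lay above every young one. It rose by 2.27 on the log2 scale at 18 months (SE 0.39, adjusted p = 0.0134) and by 2.39 at 24 months (SE 0.39, adjusted p = 0.00329), by edgeR's test. The calls of Rspo2 and Rspo3 held when any of the 10 samples was left out, with adjusted p up to 0.0491 at 18 months and up to 0.0145 at 24 months. An antisense gene overlaps Rspo3, and the sources used here do not state whether counting used strand.

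Per exon length, Rspo2 held 80.2% to 87.7% of the summed level of Rspo2, Rspo3 and Rspo4 in the 4 samples of 2 months. Rspo3 held 70.9% to 89.9% of it in 18 month samples and 83.7% to 92.8% in the oldest. The sum itself was 1.13 to 2.99 CPM per kb at 2 months and 1.34 to 2.24 CPM per kb in the older samples, with overlapping ranges. Rspo4, the R-spondin of nail formation in humans, had 0 to 21 counts per sample and was not tested; the 21 counts were in 24 month replicate 2.

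**Figure D2:**
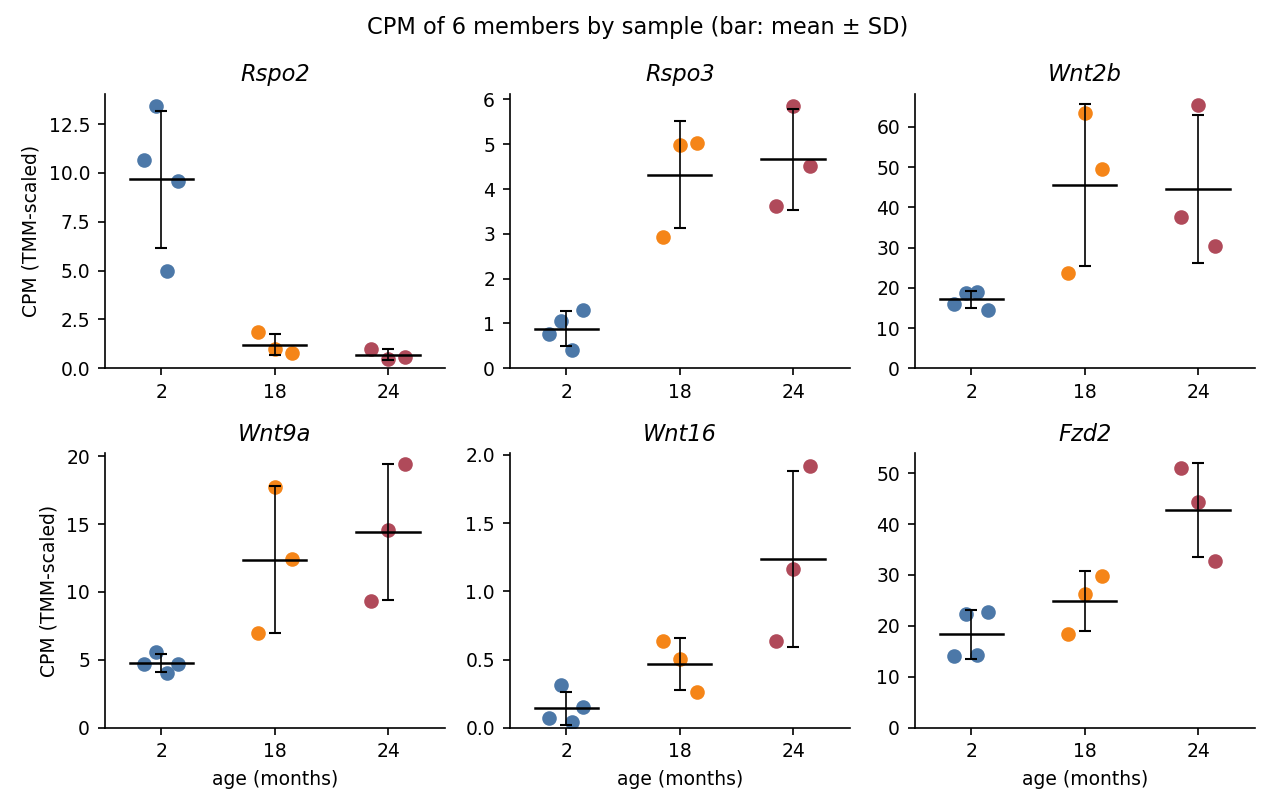
CPM (vertical axis, from 0) of Rspo2, Rspo3, Wnt2b, Wnt9a, Wnt16 and Fzd2 in each sample at 2, 18 and 24 months, with the mean as a bar and the SD as whiskers. Rspo2 lies at 4.995 to 13.4 CPM in the young samples and at or below 1.84 in the older ones; the other 5 genes have their 24 month samples above all 2 month samples.

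Among the ligands, Wnt2b and Wnt9a rose at both ages, and Wnt5a, Wnt11 and Wnt16 were called at 24 months. None of the 11 tested Wnt genes was called lower at 18 or 24 months. Over all genes 6.04% and 19.2% were called higher in these comparisons, and 5.51% and 15.8% lower. Wnt2b, a ligand of the beta-catenin branch, was at 16.0, 18.7, 19.05 and 14.6 CPM at 2 months (chromosome 3, 104945272 to 104961921, minus strand). It was at 23.7, 63.4 and 49.6 CPM at 18 months and at 37.7, 65.3 and 30.4 CPM at 24 months. The older samples all lay above the young ones. Its log2 fold change was 1.42 at 18 months (SE 0.34, edgeR adjusted p = 0.0293) and 1.38 at 24 months (SE 0.34, adjusted p = 0.0138).

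Wnt9a, a ligand known from joint formation, was at 4.69, 5.59, 4.02 and 4.72 CPM at 2 months (chromosome 11, 59306928 to 59333552, plus strand). It was at 6.95, 17.8 and 12.5 CPM at 18 months and at 9.33, 14.5 and 19.4 CPM at 24 months, again with no overlap of young and older samples. The log2 fold changes were 1.38 (SE 0.33, edgeR adjusted p = 0.0285) and 1.60 (SE 0.33, adjusted p = 0.0071). At 18 months Wnt2b missed the threshold when 2 month replicate 1, 2 or 4, 18 month replicate 2 or the summed sample was left out (edgeR adjusted p = 0.0703 to 0.105). The Wnt9a call at 18 months was lost without any 1 of the 4 samples of 2 months, without 18 month replicate 2 or without the summed sample (0.054 to 0.105). At 24 months Wnt9a held in all 10 such fits, and Wnt2b was lost without 24 month replicate 2 (0.0545).

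The promoter windows of Wnt2b and Wnt9a are shown because both ligands were called at both ages, and those of Wnt10b and Wnt1, described next, because they are neighbours with very different levels. Each window covers 250 bases before to 50 after the start that RefSeq gives the gene on GRCm38.p6, which for Wnt2b lies inside the gene span given above, 5′ to 3′ on the gene's own strand. Capitals mark the GC box letters GGGCGG or their reverse complement CCGCCC, of which neighbouring copies can share letters.
Wnt2b, chr3:104961660-104961959, minus strand: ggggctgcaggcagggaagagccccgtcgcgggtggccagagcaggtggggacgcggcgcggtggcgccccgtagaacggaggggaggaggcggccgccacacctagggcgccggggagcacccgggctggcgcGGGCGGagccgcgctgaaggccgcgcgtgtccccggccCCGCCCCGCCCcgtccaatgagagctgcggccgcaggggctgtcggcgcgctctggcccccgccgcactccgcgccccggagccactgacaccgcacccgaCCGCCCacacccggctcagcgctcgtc
Wnt9a, chr11:59306680-59306979, plus strand: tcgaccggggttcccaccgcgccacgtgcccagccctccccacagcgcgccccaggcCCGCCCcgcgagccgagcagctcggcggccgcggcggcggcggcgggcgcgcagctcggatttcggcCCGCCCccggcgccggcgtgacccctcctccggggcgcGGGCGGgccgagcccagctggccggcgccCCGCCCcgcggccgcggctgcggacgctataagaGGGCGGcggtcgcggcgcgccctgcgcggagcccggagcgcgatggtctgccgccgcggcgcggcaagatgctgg
Wnt10b, chr15:98778101-98778400, minus strand: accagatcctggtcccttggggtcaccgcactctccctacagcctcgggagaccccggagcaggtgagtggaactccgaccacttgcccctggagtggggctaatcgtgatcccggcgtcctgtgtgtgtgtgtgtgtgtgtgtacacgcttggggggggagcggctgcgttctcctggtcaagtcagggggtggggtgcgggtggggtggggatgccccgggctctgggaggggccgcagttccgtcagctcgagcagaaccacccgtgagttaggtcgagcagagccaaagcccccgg
Wnt1, chr15:98789607-98789906, plus strand: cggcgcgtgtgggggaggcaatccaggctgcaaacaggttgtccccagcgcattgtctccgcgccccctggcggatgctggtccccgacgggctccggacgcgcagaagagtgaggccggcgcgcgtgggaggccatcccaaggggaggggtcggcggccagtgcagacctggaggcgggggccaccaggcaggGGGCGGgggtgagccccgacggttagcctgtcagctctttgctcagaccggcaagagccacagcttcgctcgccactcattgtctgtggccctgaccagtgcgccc

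Wnt2b and Wnt9a hold 4 and 5 copies of the GC box, Wnt10b holds 0 and Wnt1 holds 1. A further 3 motifs were searched on both strands, CTTTGA (the core of TCF/LEF sites), TATAAA (the TATA box) and TAATTG (the NOBOX element), and none of them occurs in these 4 windows. Of the 38 genes, 25 had an entry, with 28 windows. GGGCGG occurred in 75.0% of those windows and in 35.7% of all 32851 windows, CTTTGA in 14.3% and 16.0%, TATAAA in 14.3% and 13.6%, and TAATTG in 0 of 28 and 8.0%. The median GC content was 68.7% in the 28 windows and 52.7% in all. These are matches of letters, not tested sites.

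Wnt10b was the most abundant of the 18 Wnt genes per exon length at 2 months, Wnt4 not being among them, and it differed widely between samples of 1 age. It was at 172, 92.5, 205 and 198 CPM at 2 months, at 372, 129 and 70.3 CPM at 18 months and at 184, 89.2 and 30.8 CPM at 24 months. The 3 ages overlapped, with log2 fold changes of 0.19 (SE 0.64) at 18 months and -0.72 (SE 0.65) at 24 months against 2 months, neither of them called (edgeR adjusted p = 0.87 and 0.412). Wnt10b is known for holding back the formation of fat cells.

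Per exon length, Wnt10b was at 49.0 ± 15.1 CPM per kb (SD, n = 4) at 2 months, 56.0 ± 46.95 at 18 months (n = 3) and 29.8 ± 22.7 at 24 months (n = 3). Wnt5a was at 14.7 ± 3.63, 21.8 ± 1.11 and 22.9 ± 5.96 CPM per kb. Of the summed level of the 18 Wnt genes, Wnt10b held 40.8% to 63.3% in young samples, 27.5% to 72.6% in 18 month samples and 16.2% to 49.9% in the oldest. It was the leading Wnt gene in every 2 month sample, whereas Wnt5a led in the summed 18 month sample and in 24 month replicates 2 and 3. At 24 months the sum of the theca and steroid synthesis markers had the same order as Wnt10b, at 22630, 12420 and 5813 CPM in replicates 1, 2 and 3. So did the blood vessel endothelium and macrophage sums. At 2 and 18 months the order of the theca sum differed from that of Wnt10b. At 18 months, but not at 24, the corpus luteum sum (12370, 7969 and 5495 CPM) and the nerve and glia sum followed Wnt10b. The part of any of these cell types in the level of Wnt10b was not tested.

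**Figure D3:**
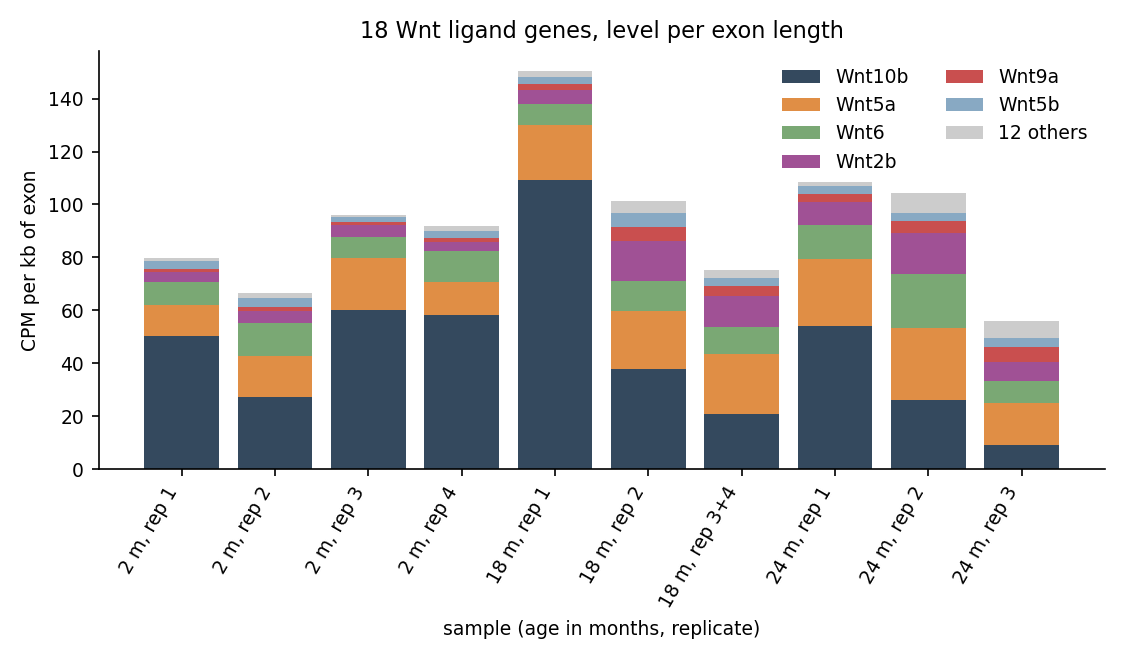
Summed level of the 18 Wnt genes in CPM per kb of exon (vertical axis, from 0) in each of the 10 samples, stacked by gene. Wnt10b, the lowest segment, ranges from 9.06 CPM per kb in 24 month replicate 3 to 109 in 18 month replicate 1, and Wnt5a, the segment above it, from 11.5 to 27.1.

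Wnt5a, the main ligand of the polarity branch, was at 89.6, 121, 153 and 97.1 CPM at 2 months. It was at 162, 171 and 179 CPM at 18 months, all above the young samples, and at 199, 212 and 126 CPM at 24 months, where replicate 3 fell within the young range. The log2 fold change was 0.57 at 18 months (SE 0.21, edgeR adjusted p = 0.11, not called) and 0.64 at 24 months (SE 0.21, adjusted p = 0.0438). The call at 24 months held in 3 of the 10 fits that left out a sample. The fits that lost it left out 2 month replicate 1, 2 or 4, 18 month replicate 2, the summed sample, or 24 month replicate 1 or 2 (0.058 to 0.151). An antisense gene overlaps Wnt5a.

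Wnt16, a ligand best known from bone, was scarce but higher with age. It was at 0.069, 0.311, 0.0406 and 0.152 CPM at 2 months, at 0.638, 0.504 and 0.265 CPM at 18 months and at 0.634, 1.17 and 1.92 CPM at 24 months. Every 24 month sample lay above every 2 month sample, on 17 to 66 counts against 1 to 10. The log2 fold change at 24 months was 3.04 (SE 0.60, edgeR adjusted p = 0.00628), and the call held with any sample left out. At 18 months it was 1.68 (SE 0.63, edgeR adjusted p = 0.107), not called. Wnt16 passed the filter through its older samples, where it is high, and it failed a stricter filter of at least 1 CPM in 3 samples.

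Wnt11 and Wnt7b were high in the same few older samples. Wnt11, a ligand of the polarity branch that acts in kidney branching, was at 0.965, 1.46, 0.65 and 1.28 CPM at 2 months, at 0.886, 5.71 and 2.85 CPM at 18 months and at 1.19, 3.101 and 10.6 CPM at 24 months. Its log2 fold change at 24 months was 2.18 (SE 0.75, edgeR adjusted p = 0.0481). Without 24 month replicate 3 it was 0.99 (adjusted p = 0.302), and the call was also lost without any 1 of the 2 month samples, the summed sample or 24 month replicate 2. Wnt7b, a ligand of epithelia such as the lung and kidney ducts, was at 0.172, 0.87, 0.284 and 1.74 CPM at 2 months, at 1.31, 5.87 and 2.72 CPM at 18 months and at 0.224, 5.44 and 9.94 CPM at 24 months. It was not called at 24 months (log2 fold change 2.74, SE 1.06, adjusted p = 0.0702) but passed in 3 of the alternatives, and 24 month replicate 1 was within the young range.

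The other tested ligands did not pass at either age against 2 months. Wnt6 was at 19.1, 27.6, 17.3 and 26.0 CPM at 2 months, at 17.2, 24.6 and 22.2 CPM at 18 months and at 27.7, 44.9 and 17.6 CPM at 24 months. Wnt5b, the paralog of Wnt5a, was at 7.10, 8.95, 4.96 and 7.12 CPM at 2 months, at 6.98, 13.8 and 7.95 CPM at 18 months and at 7.80, 8.25 and 8.87 CPM at 24 months. All ages overlapped for both. The protein-coding gene Fbxl14 overlaps Wnt5b on the opposite strand. Wnt2, a ligand of the beta-catenin branch, averaged 0.623, 1.18 and 1.15 CPM at 2, 18 and 24 months. Wnt10a, known from teeth and hair, averaged 1.43 and 2.53 CPM at 2 and 18 months, and at 24 months it was at 1.49, 11.8 and 0.611 CPM, with replicate 2 far above the others.

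Of the Wnt genes, 8 lie in 4 neighbouring pairs. Wnt10b and Wnt1 (chromosome 15, 98770712 to 98778150 and 98789857 to 98793837) are divergently transcribed and 11.7 kb apart, and Wnt1 had at most 3 counts in any sample. Wnt9a has Wnt3a as its divergent neighbour at 16.2 kb, and Wnt3a had 5, 1 and 0 counts over all samples of 2, 18 and 24 months. Wnt6 and Wnt10a lie 6.19 kb apart on the same strand of chromosome 1. Wnt9b and Wnt3, 24.3 kb apart on chromosome 11, were both below the filter.

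The Wnt genes below the filter were Wnt1, Wnt3, Wnt3a, Wnt7a, Wnt8a, Wnt8b and Wnt9b, none above 10 counts in a sample. Wnt7a, the ligand that patterns the oviduct and uterus, had 10, 9, 2 and 2 counts at 2 months, 1 count over all 18 month samples and 0 at 24 months. Over the 89520749 counts of the 24 month libraries, 0 counts allow up to 0.0335 CPM, taking 3 counts over the group as the floor and counting error only. This floor lies 5.48-fold below the pooled 2 month level of 0.184 CPM from 23 counts. The ratio leaves out the counting error of those 23 counts, most of which came from 2 month replicates 1 and 2. Wnt7a was not tested after the filter, and in a fit with no filter its edgeR adjusted p was 0.0195 at 24 months and 0.122 at 18 months. Wnt3 had 1 count at 2 months and 10 at 24 months (adjusted p = 0.091 in the same fit).

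Of the Frizzled receptors, all 10 were tested. Fzd1 was called higher at 18 months, and at 24 months Fzd2, Fzd6, Fzd7 and Fzd10 were called higher and Fzd5 lower. The shares over all genes were 6.04% higher at 18 months, and 19.2% higher and 15.8% lower at 24 months. Fzd2 had the lowest adjusted p of the called receptors. It was at 14.1, 22.4, 14.3 and 22.6 CPM at 2 months, at 18.5, 26.4 and 29.8 CPM at 18 months and at 51.05, 44.4 and 32.7 CPM at 24 months. Every 24 month sample lay above every sample of both younger ages. Fzd2 rose by 1.22 on the log2 scale at 24 months (SE 0.24, edgeR adjusted p = 0.00665), a call that held with any sample left out, and at 18 months it was at 0.44 (SE 0.24, adjusted p = 0.26). Between 24 and 18 months its log2 fold change was 0.78 (SE 0.26, adjusted p = 0.443), which did not pass.

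Fzd1 and Fzd7 are close relatives of Fzd2. Fzd1 was at 44.0, 53.9, 43.5 and 82.6 CPM at 2 months, at 92.3, 128 and 94.8 CPM at 18 months and at 73.4, 114 and 84.8 CPM at 24 months. Its log2 fold change was 0.91 at 18 months (SE 0.25, edgeR adjusted p = 0.0448), with no overlap of the samples, and 0.70 at 24 months (SE 0.25, adjusted p = 0.0524), with overlap; it passed there in 8 of the alternatives tried, DESeq2 and limma-voom among them. The call at 18 months held in 3 of 10 fits, those without 2 month replicate 4 or 24 month replicate 1 or 2, and was lost in the other 7 (0.0508 to 0.147).

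Fzd7 was at 24.6, 31.1, 18.0 and 32.1 CPM at 2 months, at 28.1, 103 and 51.2 CPM at 18 months and at 49.1, 68.2 and 69.96 CPM at 24 months. At 24 months all samples were above the young range, and the log2 fold change was 1.24 (SE 0.38, edgeR adjusted p = 0.0313), while at 18 months replicate 1 was within it (1.199, SE 0.38, adjusted p = 0.068). Leaving out 2 month replicate 1, 2 or 3, or replicate 2 or 3 of 24 months, ended the 24 month call (0.0515 to 0.0872).

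Fzd5 was the only Frizzled gene called lower. It was at 26.4, 18.7, 29.2 and 32.1 CPM at 2 months, at 34.1, 26.6 and 18.2 CPM at 18 months and at 16.5, 16.4 and 13.5 CPM at 24 months, where all samples lay below those of both younger ages. It fell by 0.78 on the log2 scale at 24 months (SE 0.24, edgeR adjusted p = 0.0294). Leaving out 2 month replicate 1, 3 or 4, or replicate 2 or 3 of 24 months, ended the call (0.0556 to 0.0939). Fzd8, of the same subfamily, was at 21.6, 25.7, 28.1 and 22.2 CPM at 2 months, at 28.7, 31.6 and 29.6 CPM at 18 months and at 20.45, 21.6 and 26.4 CPM at 24 months. Its 18 month samples lay above both other ages, and no comparison of it passed (adjusted p = 0.162 at 18 months).

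Fzd6, a receptor of the polarity branch that orders hair follicles, was at 14.0, 19.9, 15.9 and 15.8 CPM at 2 months, at 23.25, 35.4 and 19.95 CPM at 18 months and at 19.5, 29.9 and 42.7 CPM at 24 months. It rose by 0.90 on the log2 scale at 24 months (SE 0.27, edgeR adjusted p = 0.0299), although replicate 1 lay within the young range. The call ended when 2 month replicate 1, 3 or 4, or replicate 2 or 3 of 24 months, was left out (0.0636 to 0.121). Fzd3, which works with Fzd6 in polarity, was at 60.8, 62.65, 54.1 and 84.7 CPM at 2 months, at 50.5, 89.1 and 65.9 CPM at 18 months and at 61.1, 55.3 and 84.7 CPM at 24 months. The ages overlapped throughout.

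Fzd4, the receptor of norrin, is needed for the vessels of the mouse corpus luteum. It was at 82.3, 87.9, 129 and 86.0 CPM at 2 months, at 101, 87.7 and 124 CPM at 18 months and at 129, 87.95 and 78.1 CPM at 24 months, with overlapping ages and no call (log2 fold changes of 0.11 with SE 0.22 at 18 months, and 0.03 with SE 0.22 at 24 months). Fzd9 averaged 0.734, 0.707 and 0.452 CPM at the 3 ages and was not called. Fzd4 and Fzd1 had the highest levels per exon length among the receptors, 14.3 ± 3.24 and 13.3 ± 4.37 CPM per kb at 2 months.

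Fzd10 was scarce in the young ovary and high in 2 of the older samples. It was at 0.379, 0.497, 0.3655 and 0.5175 CPM at 2 months, at 0.461, 4.48 and 0.795 CPM at 18 months and at 0.5225, 1.17 and 8.69 CPM at 24 months. The log2 fold change at 24 months was 2.96 (SE 1.01, edgeR adjusted p = 0.0455). It was 0.96 without 24 month replicate 3 (adjusted p = 0.417), and the call was also lost without any 1 of the 2 month samples or the summed sample.

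Fzd10, Wnt7b and Wnt11 were highest in 24 month replicate 3, and at 18 months each was highest in replicate 2. The same samples had the largest sums of the oviduct and Mullerian epithelium markers, 1174 CPM in 24 month replicate 3 and 239.5 CPM in 18 month replicate 2, beside 84.8 and 150 CPM in the other 18 month samples. In that list 4 of 10 genes were higher at 18 months and 8 of 10 at 24 months. Of the 8 surface epithelium markers, 7 and 6 were higher, with sums of 105 to 128 CPM in young samples, 239.8 to 575 CPM in 18 month samples and 213 to 431 CPM in the oldest. Again 24 month replicate 3 and 18 month replicate 2 had the largest sums of their ages, at 431 and 575 CPM. The same held for the uterus and Mullerian stroma markers, at 140 and 138 CPM. These peaks were not particular to the 3 genes. Wnt9a, Dkk3, Fzd6, Fzd7, Fzd3, Fzd8, Wnt2 and Wnt5b also had their highest 18 month value in replicate 2. Their highest 24 month value was in replicate 3, as for Wnt9a (17.8 and 19.4 CPM) and Dkk3 (160.3 and 198 CPM). The part of these cells in the levels of any of these genes was not tested. Rspo3 did not share that order, being at 4.51 CPM in 24 month replicate 3 and at 5.86 CPM in replicate 2. At 2 and 24 months, but not at 18, the stroma and fibroblast sum had the same order of samples as Rspo3. That sum was 2514 to 3313 CPM at 2 months, 3308 to 5433 CPM at 18 months and 3627 to 6879 CPM at 24 months. At 24 months the nerve and glia sum shared the order as well. The part of these cell types in the level of Rspo3 was not tested.

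**Figure D4:**
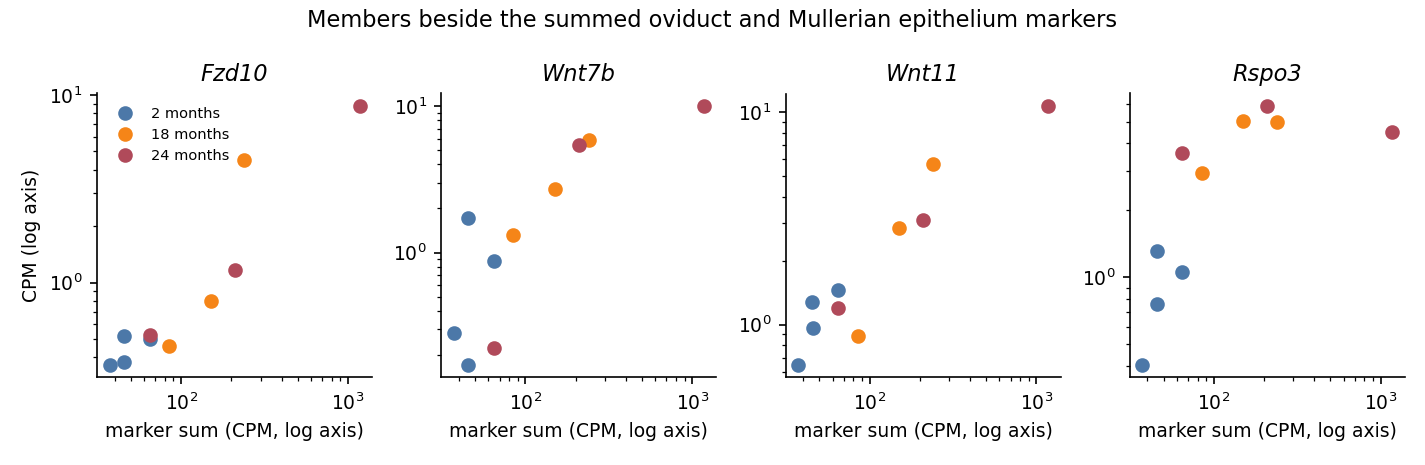
CPM of Fzd10, Wnt7b, Wnt11 and Rspo3 (vertical log axis) against the summed CPM of 10 oviduct and Mullerian epithelium markers (horizontal log axis), with 1 point per sample coloured by age. The sample furthest to the right, 24 month replicate 3 at 1174 CPM, has the highest Fzd10 (8.69 CPM), Wnt7b (9.94 CPM) and Wnt11 (10.6 CPM), but not the highest Rspo3. All points of a sample share 1 library.

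Of the secreted antagonists, Dkk3 and Sfrp5 were called at 24 months, and none at 18 months. The shares called over all genes were 35.0% and 11.6%. Dkk3, a divergent member of its family, was at 61.8, 71.2, 52.2 and 74.8 CPM at 2 months, at 85.9, 160.3 and 106 CPM at 18 months and at 80.9, 131 and 198 CPM at 24 months. All older samples lay above the young ones. The log2 fold change was 0.85 at 18 months (SE 0.30, edgeR adjusted p = 0.0904) and 1.07 at 24 months (SE 0.30, adjusted p = 0.0222). It missed the threshold when 2 month replicate 1 or 3, or replicate 2 or 3 of 24 months, was left out (0.051 to 0.0929).

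Sfrp1, the most abundant antagonist of these genes, was at 154, 127, 106 and 144 CPM at 2 months. It was at 445, 304 and 184.5 CPM at 18 months, all above the young samples, and at 142.5, 333 and 143 CPM at 24 months, where replicates 1 and 3 fell within the young range. Its log2 fold change was 1.23 at 18 months (SE 0.36, edgeR adjusted p = 0.0533) and 0.63 at 24 months (SE 0.36, adjusted p = 0.187), so that it just missed the threshold at 18 months. It passed there in 7 of the alternatives tried, DESeq2 among them. Per exon length it was at 30.4 ± 4.83, 71.2 ± 29.9 and 47.2 ± 25.1 CPM per kb at the 3 ages.

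Sfrp5, an antagonist known from fat tissue, was near the limit of detection in the young ovary, at 0.138, 0.124, 0.122 and 0.122 CPM on 3 or 4 counts each. It was at 0.425, 1.23 and 0.663 CPM at 18 months and at 0.5225, 5.72 and 0.262 CPM at 24 months, all above the young samples. It was not called at 18 months (log2 fold change 2.59, SE 1.02, edgeR adjusted p = 0.125). The log2 fold change at 24 months was 4.06 (SE 1.00, edgeR adjusted p = 0.0146), and without 24 month replicate 2, the highest sample, it was 1.58 (adjusted p = 0.0607). Wnt10a was highest in that sample too. Sfrp5 passed the filter only through its older samples. It failed the filter when 2 and 24 months alone were fitted, and under a stricter filter of at least 1 CPM in 3 samples. Sfrp2, a stromal antagonist, averaged 1.45, 2.18 and 2.31 CPM and was not called.

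Dkk2, an inhibitor at the Lrp coreceptors, was at 2.41, 2.58, 2.315 and 2.435 CPM at 2 months, at 2.37, 1.48 and 5.10 CPM at 18 months and at 6.98, 2.56 and 6.11 CPM at 24 months. The age groups overlapped and it was not called (log2 fold change 1.10 at 24 months, SE 0.43, edgeR adjusted p = 0.0739), although at 24 months it passed in 4 of the alternatives. Dkk1, the best known inhibitor of this kind, had 7, 2 and 0 counts over all samples of 2, 18 and 24 months, and Dkk4 had 8, 0 and 3. Both were below the filter.

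**Figure D5:**
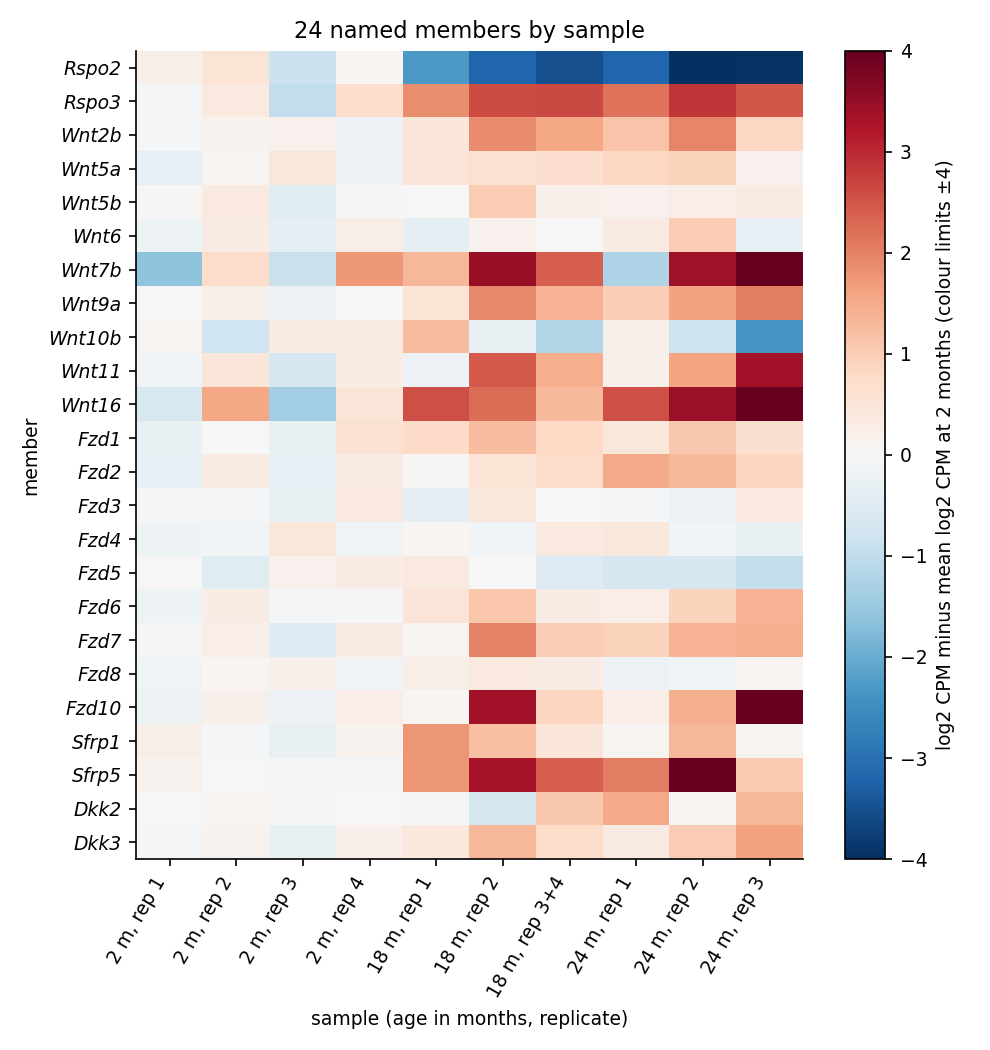
Log2 CPM of the 24 named genes (rows) in each of the 10 samples (columns), as the difference from the mean log2 CPM of the gene at 2 months, with red above and blue below it. Rspo2 is blue and Rspo3 red in all 6 older samples, while Wnt7b, Wnt11 and Fzd10 are deepest red in 24 month replicate 3 (9.94, 10.6 and 8.69 CPM); colours stop at a difference of 4.

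Between 24 and 18 months none of the 28 tested genes was called by edgeR, by DESeq2 or by limma-voom, and 4 had an unadjusted edgeR p under 0.05. They were Fzd2, Wnt16, Fzd5 and Fzd8, with log2 fold changes of 0.78 (SE 0.26), 1.36 (SE 0.60), -0.77 (SE 0.25) and -0.39 (SE 0.14) and adjusted p = 0.443 to 0.477. Fzd2 was higher, and Fzd5 and Fzd8 lower, in every 24 month sample than in every 18 month sample; the ranges of 3 of the 28 genes, and of 12.1% of all genes, did not overlap. The log2 fold changes of the 28 ran from -0.91 to 1.475. Over all 20331 genes 1 was called (0.00492%), and with same-numbered samples of the older ages paired in a replicate block, 0 were. Against 2 months the ranges of 13 of 28 genes did not overlap at 18 months (27.3% of all genes), nor those of 11 at 24 months (42.1% of all genes).

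Other genes of the pathway were counted in 5 lists. Among the 15 tested coreceptors and other receptors, 1 was higher at 18 months, and 4 were higher and 1 lower at 24 months. Over all genes 11.6% and 35.0% were called in these comparisons, so by edgeR the receptors were not called at a higher share. At 24 months DESeq2 called 7 of the 15 and limma-voom 10, beside 8339 and 9757 of all 20331 genes, which are higher shares of the receptors. Lgr6, an R-spondin receptor, rose from 22.5 ± 1.97 CPM (SD, n = 4) to 47.4 ± 6.06 at 18 months (n = 3, log2 fold change 1.075, SE 0.17, edgeR adjusted p = 0.0127) and to 58.4 ± 14.99 at 24 months (1.38, adjusted p = 0.00206). Lgr4, another R-spondin receptor, fell from 224 ± 76.8 to 113 ± 20.9 CPM at 24 months (-0.98, SE 0.26, adjusted p = 0.0187). Reck, a coreceptor for Wnt7 ligands, went from 25.3 ± 3.29 to 62.9 ± 25.8 CPM (1.31, SE 0.35, adjusted p = 0.0196) and Ror2, a receptor of Wnt5a, from 7.67 ± 1.66 to 15.4 ± 7.62 CPM (1.01, SE 0.32, adjusted p = 0.0373).

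In the list of frequent targets of beta-catenin, 5 of 18 tested genes were higher at 18 months and 7 at 24 months, with none lower, where 6.04% and 19.2% of all genes were higher and 5.51% and 15.8% lower. Axin2, a feedback inhibitor and common readout of the beta-catenin branch, rose from 25.2 ± 5.32 to 69.0 ± 30.7 CPM at 18 months (1.45, SE 0.31, edgeR adjusted p = 0.0226) and to 72.4 ± 14.6 CPM at 24 months (1.52, adjusted p = 0.00721). Sp5, a transcription factor that is a direct target, rose from 0.796 ± 0.256 to 4.16 ± 2.89 and 4.896 ± 1.78 CPM (2.38 with SE 0.52, and 2.615 with SE 0.52). Nkd2, an inhibitor of Dishevelled, rose from 6.70 ± 2.29 to 17.2 ± 6.12 CPM at 24 months, and Tnfrsf19, a receptor of the TNF family, to 65.7 ± 37.7 CPM at 18 months (log2 fold change 1.58, SE 0.42). Cd44, the hyaluronan receptor, which many immune cells also carry, rose from 15.2 ± 1.88 to 31.4 ± 0.517 and 48.85 ± 1.24 CPM. In the same comparisons all 6 macrophage markers were higher at both ages, with sums of 187 to 235 CPM in young samples, 392 to 522 CPM in 18 month samples and 449 to 500.4 CPM in 24 month samples. Their part in the level of Cd44 was not tested.

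Of the 23 transducers inside the cell, none was called at 18 months by edgeR (3 with an unadjusted p under 0.05, 1 called by DESeq2 and 0 by limma-voom), and at 24 months 1 was called by edgeR (5 with an unadjusted p under 0.05, 3 called by DESeq2 and 5 by limma-voom). The edgeR call was Bcl9, a cofactor of beta-catenin (60.8 ± 3.69 to 85.2 ± 15.2 CPM, log2 fold change 0.49, SE 0.15, edgeR adjusted p = 0.0333). Their median log2 fold change was -0.01 at both ages. In the list of secretion and extracellular regulators 1 of 14 was higher at each age. These were Igfbp4, which binds growth factors and Wnt receptors, at 18 months (361 ± 66.1 to 696 ± 77.5 CPM) and Frzb, an Sfrp relative, at 24 months (13.5 ± 3.84 to 27.04 ± 7.46 CPM). Of the 13 planar polarity genes, Prickle2 was higher at 18 months (37.8 ± 6.08 to 61.2 ± 10.4 CPM). None was called at 24 months by edgeR (1 with an unadjusted p under 0.05, 0 by DESeq2 and 2 by limma-voom). Between 24 and 18 months no gene of the 5 lists was called by edgeR or limma-voom, and 8 list entries had an unadjusted p under 0.05, with 1 call by DESeq2 among the targets.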

How the data were processed

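Ovary RNA of wild-type mice was sequenced after stranded mRNA library preparation, per the labels' protocols. The authors deposited unnormalized gene counts. The submitters' processing notes list mm10, HTSeq, STAR, cutadapt and FastQC. For versions, gene annotation and strand setting the sources used here give nothing, so reads shared with overlapping genes, which 11 of the 38 genes have on the opposite strand, cannot be assigned with certainty.

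Ages were read from the titles of the samples. The 20331 genes that passed filterByExpr entered edgeR 4.0.16 with TMM factors in R 4.3.3 (quasi-likelihood test, glmQLFit with robust estimation, all 3 ages in 1 model, no block, two-sided, Benjamini-Hochberg over all genes, 7 residual degrees of freedom). Each SE was obtained by dividing the absolute log2 fold change by the root of the F statistic. Exon lengths are unions from GENCODE M21, where 37 of the 38 genes had identical coordinates. Genes are named with every sample's value if called in any comparison or at a mean of at least 5 CPM in any age; of a pathway list at most the 4 with the lowest adjusted p in a comparison are. Members and lists were chosen with earlier results of these data known. The test was checked on simulated counts.

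Depth sets the precision: 5231724 counts in the shallowest library, and intervals or floors cover counting error only. Deviations from the age means of same-numbered samples of 18 and 24 months correlated at 0.398, 0.283 and 0.148, all above 0.1. The numbers were therefore treated as a possible pairing of these samples. A differently numbered pair, 24 month replicate 3 and 18 month replicate 2, reached 0.144, so a pairing is not established. The printed 24 against 18 month fold changes come from the fit with no block, and the blocked fit gives the count beside them. What a shared number stands for is not in the labels. Alternatives tried were DESeq2 1.42.0, limma-voom (limma 3.58.1), other scalings and filters, a replicate block, fits of the compared ages only, all libraries apart, replicate 4 alone, and leaving out each sample. A block in the older ages alone was added after the data were seen.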

Additional observations from a re-analysis of the deposited data

Results flagged for a closer look

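In 2 of the 24 genes with values given per sample, a 2 month sample stood far from the other 3 by Dixon's 95% criterion on the gap to the nearest sample (0.878 and 0.842 of the range of the group); chance does this in about 1 group in 20. Fzd4 was at 128.7 CPM in 2 month replicate 3, against 82.3 to 87.9 in the others. Sfrp5 was at 0.1379 CPM in 2 month replicate 1, against 0.1218 to 0.1243, a gap that rests on values of 3 or 4 counts.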

How the results depend on the processing

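No called fold change reversed in any alternative. The number of genes called at 18 months against 2 months was 2349, and it was 1034 with a replicate block, 4052 with DESeq2, 4000 with all 11 libraries apart and 375 (without the summed 18 month sample), 382 (without 2 month replicate 1) and up to 2748 with a sample left out. At 24 months against 2 months it was 7120, and 4283 to 7467 with a sample left out. Between 24 and 18 months it was 1, and it was 0 with library totals alone, with the replicate block, with only the ages compared and with the block in the older ages alone, 194 with DESeq2 (79 higher, 115 lower) and 0 to 2 with a sample left out.

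Members called at 18 months were 5, and 3 with no count filter, 3 with the replicate block, 8 with only the ages compared, 9 with DESeq2 and 2 to 7 with a sample left out. At 24 months they were 14 (12 higher, 2 lower), and 12 with no count filter (9 higher, 3 lower), 17 with DESeq2 and 7 to 15 with a sample left out. Between 24 and 18 months they were 0 in every setting run. The causes were not tested. The replicate numbers of the 2 month samples do not pair with the older ones. Same-numbered correlations were 0.0741, -0.0576 and -0.0545 at 18 months and -0.0278, -0.0755 and -0.109 at 24 months. No older sample correlated best with the 2 month sample of its own number. With the replicate block 10 members were called at 24 months; Wnt2b and Wnt9a at 18 months and Wnt5a, Wnt11, Fzd5, Fzd6, Fzd10 and Sfrp5 at 24 months were not.

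Genes with few counts, such as Sfrp5, Wnt16 and the 10 below the filter, have the least precise values.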
